A study of Drosophila melanogaster with 11 samples.

Results

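The chromatin regulators and corepressors described here are 35 named genes among the 14595 genes of the expression table, found by exact match of the gene symbol. They comprise 8 genes of the SWI/SNF (Brahma) remodelling complexes, 6 other ATP-dependent remodellers, 3 genes of Polycomb repressive complex 2, 5 of Polycomb repressive complex 1, 4 of the trithorax group methyltransferase complexes, 5 deacetylase and corepressor genes, 1 coactivator acetyltransferase and 3 heterochromatin genes. RNA was sequenced from intestinal stem cells (ISCs) and from enteroblasts (EBs), the Notch-active precursors of absorptive enterocytes, after fluorescence-activated sorting from midguts of adult *Drosophila* females aged 5 days. The question addressed is whether transcripts of these genes differ when *spen*, which encodes a large nuclear RNA-binding protein, is targeted by RNAi, and whether they differ between the cell types.

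The groups were SPEN-ISC (3 libraries), WT-ISC (3 libraries), SPEN-EB (3 libraries) and WT-EB (2 libraries, numbered 1 and 3). Every fly, controls included, carried esg>GAL4 together with tubGAL80.ts, UAS-RFP and nre-GFP, and was shifted for 2 days from 18 °C to 29 °C. SPEN flies carried UAS-spen RNAi in addition, whereas flies labelled wild-type did not. The driver is active in both ISCs and EBs, so the RNAi was not limited to the cell type that was sorted. ISCs were the diploid cells with RFP alone, and EBs were the diploid cells with both RFP and GFP. Each library pools sorted cells from many guts, and libraries are the replicates of every test.

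DNA in the nucleus is wound around histones, and the proteins considered here move those histones, add or remove chemical marks on them, or are brought to genes by transcription factors to repress them. Polycomb group proteins keep developmental genes silent, trithorax group proteins and the Brahma remodellers counteract that silencing, and corepressors such as Groucho, CtBP and Smr act with sequence-specific repressors, among them factors of the Notch pathway. In the fly midgut, several of these complexes are known from genetic work to influence how ISCs are maintained and how EBs differentiate.

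Depth was similar between libraries, from 28206027 to 31991452 exon bin counts, but the number of genes with at least 1 FPKM (read fragments normalised to exon length and to the size of the library) ranged from 4676 to 6838. The targeted gene was not lower in the SPEN libraries. *spen* had 2.17, 1.61 and 5.04 FPKM in SPEN-ISC against 0.255, 0.620 and 0.327 FPKM in WT-ISC, and 2.24, 0.920 and 0.936 FPKM in SPEN-EB against 0.115 and 0.147 FPKM in WT-EB. Most of its counts in each SPEN library lay in the single exon bin E014. The paper attributes the rise of *spen* to the expressed double-stranded RNA, which targets this exon. It reports reads there on both strands under RNAi but not in wild type. Outside E014 *spen* had 4.62, 7.54 and 18.0 CPM (counts normalised to library size) in SPEN-ISC against 4.27, 7.76 and 4.34 in WT-ISC, and 16, 2.89 and 3.58 in SPEN-EB against 1.69 and 2.10 in WT-EB. The log2 fold change of the whole gene in ISCs, E014 included, was 1.68 (SE 0.45, adjusted p = 0.346 by limma). A loss of *spen* mRNA is not seen in these values, and the groups are called by their labels. The paper also reports Delta protein accumulating at the membrane of such RNAi cells. Summed FPKM of 5 stem cell genes (*Dl*, *spdo*, *chn*, *polo* and *cdc2*) was 18.9 to 74.3 in SPEN-ISC, 21.0 to 46.5 in WT-ISC, 3.53 to 6.39 in SPEN-EB and 1.53 to 3.14 in WT-EB. Summed FPKM of 9 Notch-responsive genes (*klu* and 8 genes of the *E(spl)* complex) was 3172 to 5106 in SPEN-ISC, 1165 to 1709 in WT-ISC, 2225 to 2889 in SPEN-EB and 1051 to 1078 in WT-EB. This sum was thus not higher in EBs than in ISCs of the same genotype, which does not speak for each gene in it. In the same order of groups, 5, 6, 6 and 4 of the 9 genes reached 1 FPKM. In WT-EB 3 of the 9 genes (*E(spl)m5-HLH*, *E(spl)mdelta-HLH* and *E(spl)m4-BFM*) were listed at 0. A list of 10 enteroendocrine genes summed to 159 to 2984 FPKM in SPEN-ISC, 1393 to 2545 in WT-ISC, 8.57 to 16.1 in SPEN-EB and 17.7 to 24.9 in WT-EB. Summed FPKM of 10 enterocyte genes was 1860 to 5242 in SPEN-ISC, 1672 to 2999 in WT-ISC, 2786 to 2837 in SPEN-EB and 267 to 327 in WT-EB. The part of other cell types in the values below was not tested, and fewer cells of a type cannot be told apart from less RNA per cell.

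Transcript levels of the 35 genes spanned more than 3 orders of magnitude, and no member was at 0 in any library. FPKM is normalised to exon length, but coverage along long transcripts was uneven in these libraries, with values given further on, and the part of this in the contrasts between long and short genes was not tested. The mean of the 4 group means ran from 135 FPKM for *Su(var)205* to 0.0879 FPKM for *Smr*, and 12 members reached 1 FPKM in all 11 libraries. These 12 were *Su(var)205*, *Bap60*, *Snr1*, *ash2*, *Sce*, *Bap55*, *CtBP*, *dalao*, *Rpd3*, *mor*, *Mi-2* and *E(z)*. The 5 members *ph-d*, *Psc*, *ash1*, *Smr* and *nej* reached 1 FPKM in no library, and the other 18 did so in some. *Su(var)205* was above 97.4% of all genes in the table by this mean, and *Smr* was above 41.5%. Within most complexes the levels of the subunits differed by more than 10-fold, as the plot of each library's FPKM by complex shows.

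**Figure D1:**
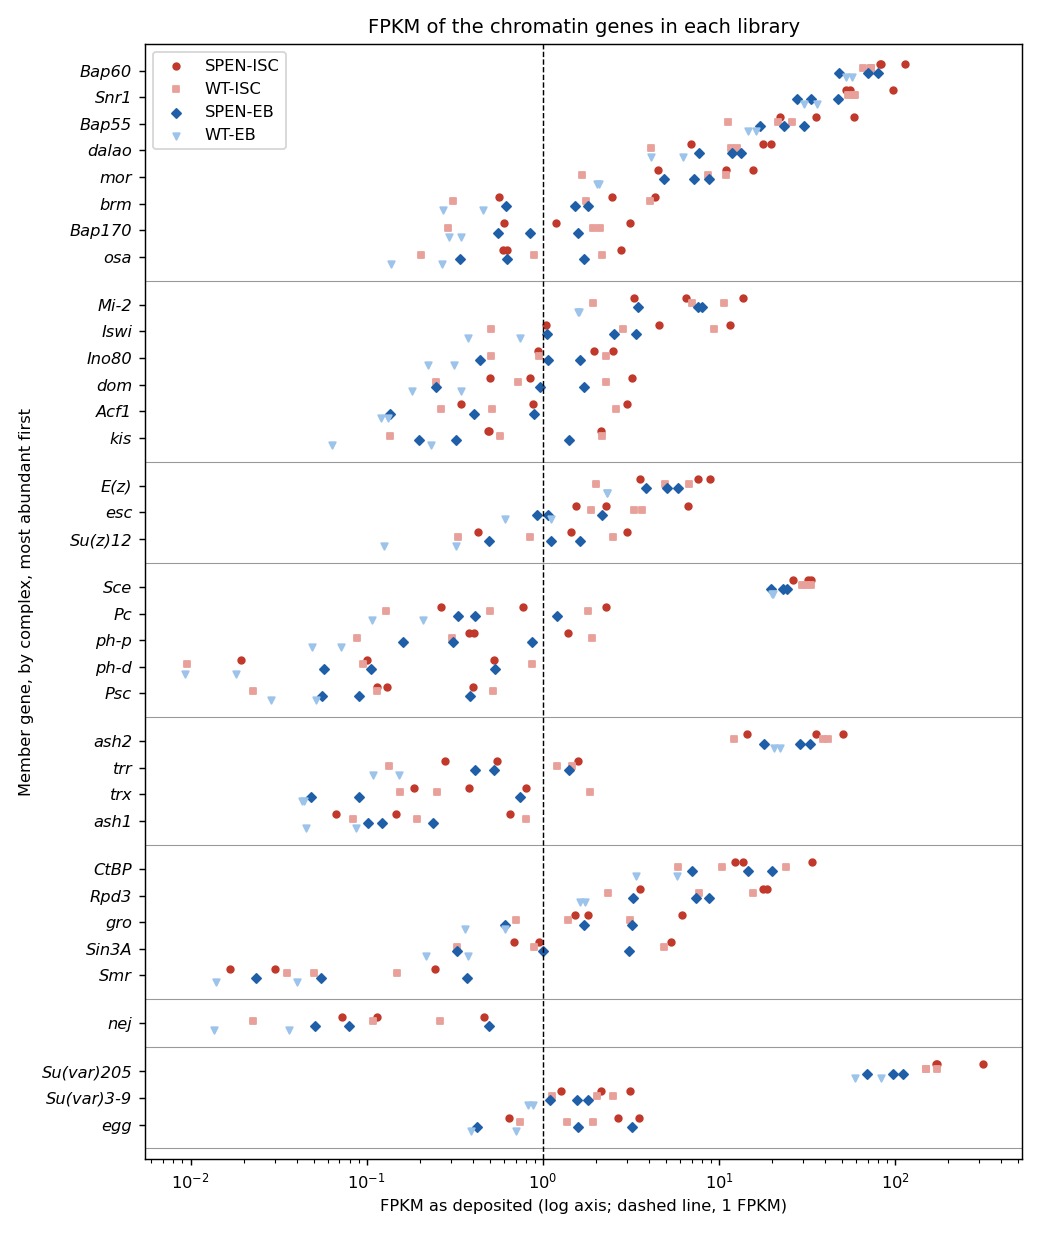
FPKM of the 35 chromatin genes in each of the 11 libraries, on a log axis, grouped by complex; each symbol is 1 library and the dashed line marks 1 FPKM. *Su(var)205* lies between 59.4 and 313 FPKM, whereas *ph-d* lies between 0.00927 and 0.867 FPKM.

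Within the Brahma complexes the levels of the subunits differed widely. *Bap60*, an accessory subunit, averaged 93.0 ± 18.3 FPKM in SPEN-ISC, 70.4 ± 4.15 in WT-ISC, 65.9 ± 16.5 in SPEN-EB (SD, n = 3 each) and 54.9 ± 2.86 in WT-EB (SD, n = 2). *Snr1*, a core subunit, had 96.8, 52.3 and 55.5 FPKM in SPEN-ISC, 59.4, 58.3 and 53.9 in WT-ISC, 27.7, 33.2 and 47.4 in SPEN-EB and 30.2 and 35.9 in WT-EB. Every ISC library was thus above every EB library for *Snr1* as deposited, and the SPEN and WT values overlapped within each cell type. *Bap55*, an actin-related subunit shared with other remodelling complexes, had 58.0, 22.1 and 35.7 FPKM in SPEN-ISC, 11.3, 25.8 and 21.6 in WT-ISC, 17.2, 23.3 and 30.4 in SPEN-EB and 14.5 and 16.3 in WT-EB. *brm*, the ATPase that drives nucleosome movement, was far lower, with 2.47, 0.562 and 4.33 FPKM in SPEN-ISC, 0.308, 4.05 and 1.76 in WT-ISC, 1.8, 0.615 and 1.51 in SPEN-EB and 0.269 and 0.458 in WT-EB. The ratio of *brm* to *Bap60* within a library, which no scaling of libraries can change, ran from 0.422% in WT-ISC 1 to 6.18% in WT-ISC 2, both of the same group. *mor*, a scaffold subunit, lay between 1.66 FPKM (WT-ISC 1) and 15.5 FPKM (SPEN-ISC 3), and *dalao*, an HMG-box subunit, between 4.09 FPKM (WT-ISC 1) and 19.8 FPKM (SPEN-ISC 3). The 2 subunits that define alternative forms of the complex, *osa* for the BAP form and *Bap170* for the PBAP form, had similar levels. *osa* was 46.1% to 108% of *Bap170* within a library, with 1.33 ± 1.25 FPKM in SPEN-ISC, 1.08 ± 0.992 in WT-ISC, 0.892 ± 0.727 in SPEN-EB (SD, n = 3 each) and 0.203 ± 0.0929 in WT-EB (SD, n = 2). These pairs of genes, like those below, were chosen after their values were seen.

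Among the other remodellers, *Mi-2*, the ATPase of the NuRD complex, was the most abundant. It had 6.46, 3.29 and 13.6 FPKM in SPEN-ISC, 1.93, 10.7 and 6.99 in WT-ISC, 7.63, 3.48 and 7.97 in SPEN-EB and 1.59 and 1.61 in WT-EB. Both WT-EB libraries were below all 9 others for *Mi-2* as deposited, and WT-ISC 1 was next. *Iswi*, the ATPase of several nucleosome-spacing complexes, had 4.55, 1.04 and 11.5 FPKM in SPEN-ISC, 0.509, 9.35 and 2.84 in WT-ISC, 3.36, 1.06 and 2.52 in SPEN-EB and 0.378 and 0.739 in WT-EB. The 3 WT-ISC values lay further apart than the means of the 4 groups. *Acf1*, a partner of *Iswi*, was 12.9% to 51.8% of *Iswi* within a library and reached 1 FPKM only in SPEN-ISC 3 and WT-ISC 2. *Ino80*, the ATPase of the INO80 complex, *dom*, which exchanges histone variants, and *kis*, a CHD family remodeller of the trithorax group, ranged from 0.222 to 2.49 FPKM, 0.180 to 3.20 FPKM and 0.0633 to 2.15 FPKM over the 11 libraries.

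In Polycomb repressive complex 2, *E(z)*, the histone methyltransferase, was the most abundant, with 7.62, 3.54 and 8.91 FPKM in SPEN-ISC, 2.01, 6.77 and 4.95 in WT-ISC, 5.07, 3.86 and 5.87 in SPEN-EB and 2.31 and 2.32 in WT-EB. *esc*, the WD-repeat subunit, had 6.69, 1.55 and 2.27 FPKM in SPEN-ISC, 1.89, 3.29 and 3.67 in WT-ISC, 0.931, 1.06 and 2.15 in SPEN-EB and 0.607 and 1.11 in WT-EB. For *esc* all WT-ISC libraries exceeded both WT-EB libraries, while SPEN-ISC and SPEN-EB overlapped. *Su(z)12*, which stimulates the enzyme, was 5.46% to 36.9% of *E(z)* within a library. Of Polycomb repressive complex 1, only *Sce*, the RING protein that ubiquitinates histone H2A, was abundant. *Sce* had 33.5, 32.1 and 26.3 FPKM in SPEN-ISC, 29.6, 31.1 and 33.1 in WT-ISC, 19.8, 23.2 and 24.4 in SPEN-EB and 20.3 and 19.9 in WT-EB, the steadiest values of any member, with a ratio of highest to lowest library of 1.69. The chromodomain protein *Pc*, which binds the Polycomb mark on histone H3, ranged from 0.108 to 2.28 FPKM, and *Psc*, the partner of *Sce*, from 0.0226 to 0.519 FPKM. *Psc* was between 0.0765% and 1.95% of *Sce* in the same library. The neighbouring duplicates *ph-p* and *ph-d* ranged from 0.0489 to 1.89 FPKM and from 0.00927 to 0.867 FPKM. Their split is uncertain, since they are near-identical in part and the alignment kept 1 site for each read.

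The trithorax group methyltransferase complexes showed the same contrast between a small shared subunit and large enzymes. *ash2*, a shared subunit of the histone methyltransferase complexes, had 35.6, 14.4 and 50.6 FPKM in SPEN-ISC, 12.2, 41.4 and 38.8 in WT-ISC, 28.9, 18.1 and 32.7 in SPEN-EB and 20.5 and 22.3 in WT-EB. *trr*, a methyltransferase that acts at enhancers, was 0.486% to 4.89% of *ash2* within a library, and *trx*, the founding member of the group, 0.197% to 4.47%. *trx* had 0.184, 0.378 and 0.801 FPKM in SPEN-ISC, 0.155, 1.85 and 0.250 in WT-ISC, 0.742, 0.0484 and 0.0900 in SPEN-EB and 0.0429 and 0.0440 in WT-EB. A single library in each of 3 groups (SPEN-ISC 3, WT-ISC 2 and SPEN-EB 1) held most of the *trx* signal, and WT-ISC 2 was the only one above 1 FPKM. *ash1*, another histone methyltransferase, ranged from 0.0453 to 0.802 FPKM.

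Among the deacetylase and corepressor genes, *CtBP*, a corepressor recruited by short motifs in repressors, was highest, with 12.4, 13.7 and 33.9 FPKM in SPEN-ISC, 5.82, 24.0 and 10.4 in WT-ISC, 19.9, 7.03 and 14.6 in SPEN-EB and 3.36 and 5.81 in WT-EB. *Rpd3*, the class I histone deacetylase, had 17.8, 3.55 and 18.7 FPKM in SPEN-ISC, 2.35, 15.6 and 7.67 in WT-ISC, 7.39, 3.26 and 8.75 in SPEN-EB and 1.74 and 1.62 in WT-EB. Both WT-EB libraries were below every other library for *Rpd3* as deposited. *Sin3A*, the scaffold of a deacetylase complex, was 5.34% to 41.5% of *Rpd3* within a library. *gro*, which encodes the corepressor Groucho, had 1.81, 1.51 and 6.14 FPKM in SPEN-ISC, 0.705, 3.14 and 1.38 in WT-ISC, 3.19, 0.613 and 1.71 in SPEN-EB and 0.360 and 0.608 in WT-EB. Its ratio to *CtBP* was steadier than either level, 8.73% to 18.1%. *Smr*, a corepressor related to mammalian SMRT and NCoR, was the lowest member, at 0.0140 to 0.371 FPKM, which corresponds to 5 to 136 counts over its exons. *nej*, the fly CBP acetyltransferase and the only coactivator in the set, ranged from 0.0135 to 0.495 FPKM, or 6 to 200 counts.

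In the heterochromatin class, *Su(var)205*, which encodes HP1a, had 313, 170 and 172 FPKM in SPEN-ISC, 150, 172 and 149 in WT-ISC, 69.4, 97.3 and 111 in SPEN-EB and 59.4 and 83.1 in WT-EB. Every ISC library was above every EB library as deposited. The methyltransferases that write the mark bound by HP1a were much lower. *Su(var)3-9* lay between 0.827 and 3.13 FPKM and *egg* between 0.393 and 3.50 FPKM, which is 0.747% to 2.26% and 0.378% to 2.88% of *Su(var)205* within a library.

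The spread of a member over the 11 libraries went with the length of its transcript. The ratio of highest to lowest library had a median of 4.64 for the 12 members with less than 3 kb of exons, 16.1 for the 11 members with 3 to 6 kb and 23.8 for the 12 members above 6 kb, with limits of length chosen after the values were seen. Over the 35 members, exonic length had a Spearman correlation of 0.72 with this ratio and of -0.79 with the mean FPKM, and the mean FPKM had one of -0.82 with the ratio. These correlations are across genes that share libraries and are given as a description. The extremes were *Sce* (1542 bases of exons, ratio 1.69) and *ph-d* (4764 bases, ratio 93.6), and the longest member, *kis* (19048 bases), had a ratio of 34.0. Length and level are tied in this set, as the plot of spread against length shows, so the part of each cannot be told apart here.

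**Figure D2:**
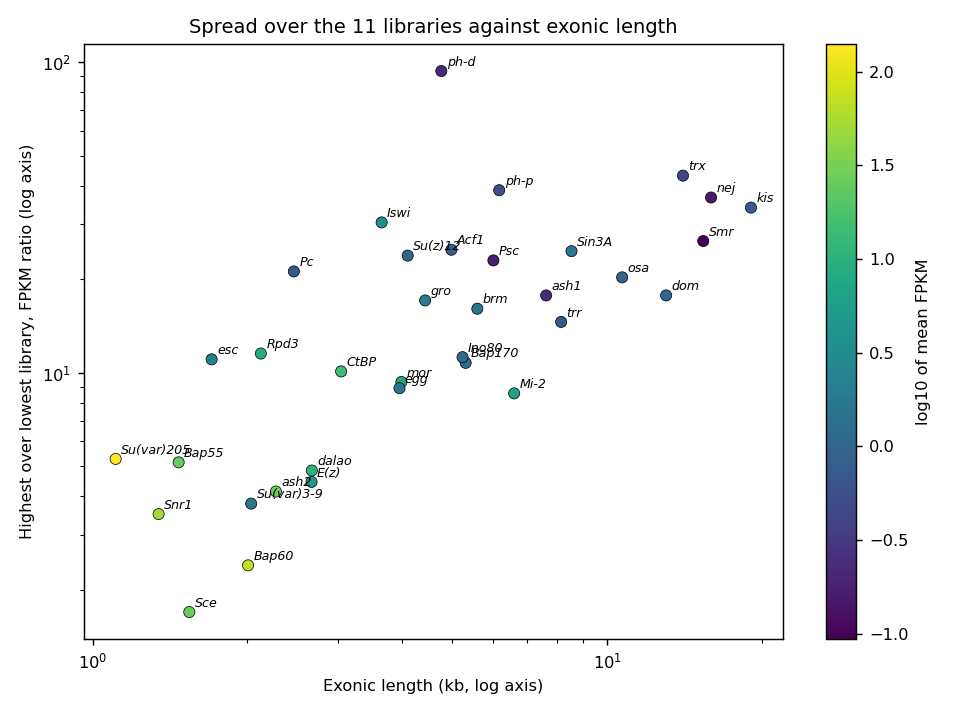
Ratio of the highest to the lowest of the 11 libraries for each of the 35 members, against exonic length, both on log axes; each point is 1 gene and its colour is the log10 of its mean FPKM. The ratio lies at 1.69 for *Sce* and at 93.6 for *ph-d*.

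The same few libraries were highest for nearly all long members. SPEN-ISC 3 was the highest SPEN-ISC library for 28 of the 35 members, including all 23 with at least 3 kb of exons, and WT-ISC 2 was the highest WT-ISC library for 31 members, again including those 23. SPEN-EB 1 was highest for 11 of the 12 members above 6 kb and for 9 of the 11 of 3 to 6 kb, but for 1 of the 12 short ones. WT-EB 3 exceeded WT-EB 1 for 28 members. Other genes behaved alike, since SPEN-ISC 3, WT-ISC 2 and SPEN-EB 1 were the highest of their groups for 98.3%, 97.7% and 92.4% of the genes above 6 kb among the 7027 genes tested in the fit of all libraries. For members above 6 kb the median log2 deviation from the gene's own mean was 0.12, -0.35 and 2.18 in SPEN-ISC, -1.56, 2.03 and 0.30 in WT-ISC, 1.63, -0.88 and 0.02 in SPEN-EB and -2.0 and -1.25 in WT-EB. Other genes of that length spread about as widely, since the median range over the 11 libraries on the log2(FPKM + 0.5) scale was 2.36 for the 7 members above 6 kb that passed the filter and 2.26 for 346 other genes.

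Coverage along the transcript differed between the same libraries. For 7 members above 6 kb with enough counts, the exons were divided into 3 equal parts along the strand, and the median log2 ratio of coverage in the last part to that in the first part was 2.41, 2.62 and 0.85 in SPEN-ISC, 3.08, 1.24 and 1.53 in WT-ISC, 0.58, 2.31 and 2.60 in SPEN-EB and 2.68 and 1.94 in WT-EB. By these members, the libraries in which long members were high had the lowest ratio of their group, that is, the most even coverage. The 343 other genes of that length ran from 0.451 (SPEN-EB 1) to 1.64 (SPEN-ISC 2). By those genes the same order was not seen in every group. WT-ISC 3 (0.795) was below WT-ISC 2 (0.851), and WT-EB 1 (0.928) was below WT-EB 3 (1.095). For the 6 members below 3 kb the medians stayed between -0.290 and 0.066. These medians do not show *ash2* (2272 bases), which is among the 6 and ran from 3.43 to 5.55. The part of this difference in the levels of the members was not tested in the comparisons as reported, and fits that take it into account are among the alternatives given after each comparison.

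**Figure D3:**
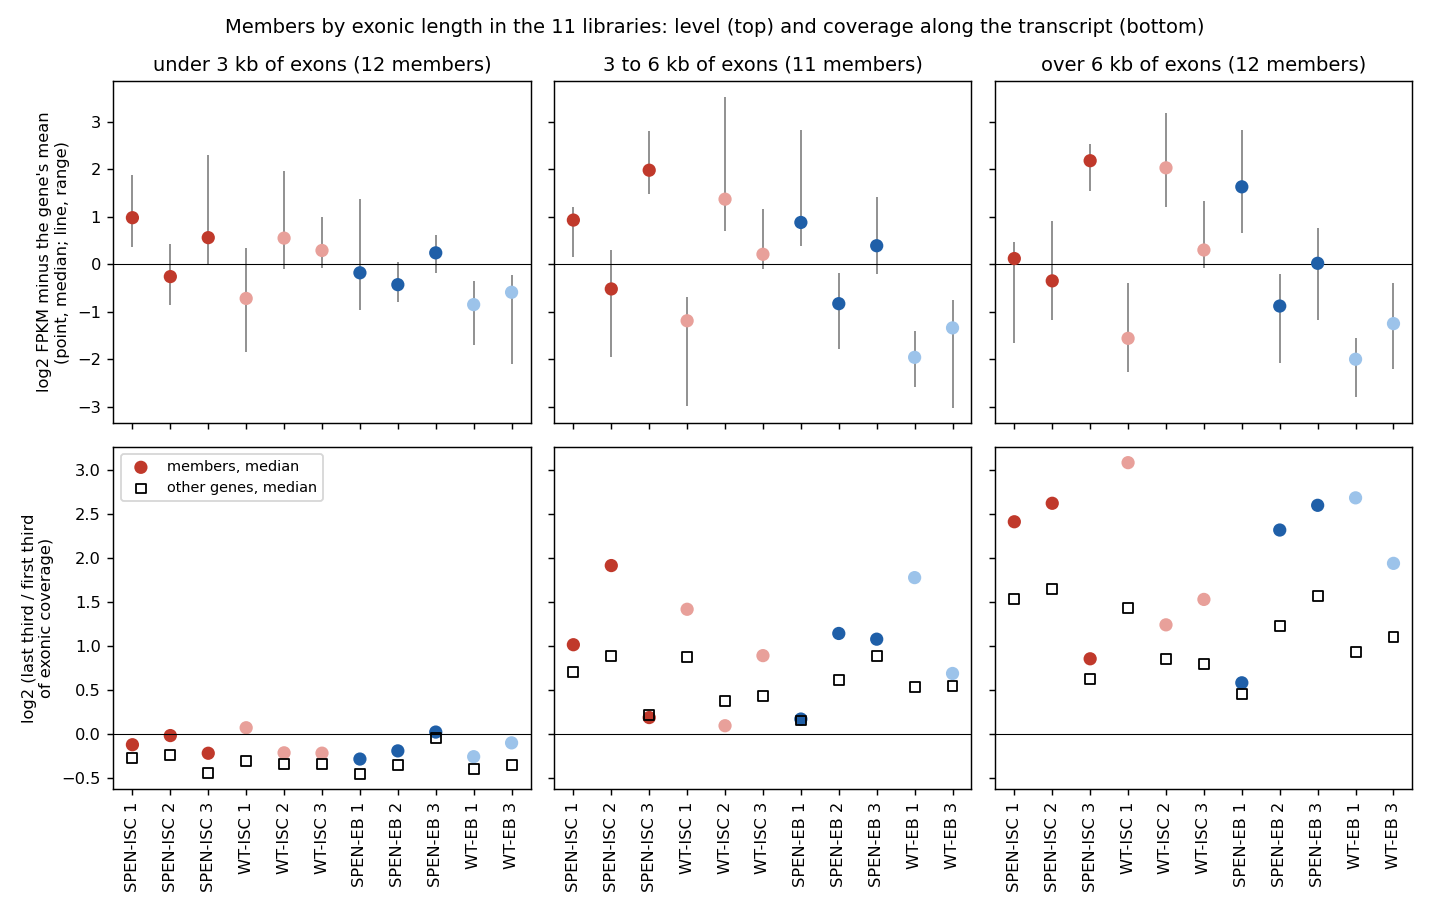
Medians over members in 3 classes of exonic length for each library: log2 FPKM minus the gene's mean over the 11 libraries in the upper row, where lines give the range over members, and log2 ratio of coverage in the last to the first of 3 equal parts of the exons in the lower row, where open squares are other genes. In the class above 6 kb, SPEN-ISC 3, WT-ISC 2 and SPEN-EB 1 sit at 2.18, 2.03 and 1.63 in the upper row and at 0.85, 1.24 and 0.58 in the lower row.

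Gene expression was compared with limma on log2(FPKM + 0.5) after scaling the libraries, so fold changes of low genes are understated. A gene was tested if the number of libraries at 1 FPKM or more was no less than the size of the smaller group, and p-values were adjusted over all genes tested with a threshold of 0.05. Scaling matters for these libraries. The WT-EB libraries had factors of 0.603 and 0.772 against 1.42, 1.04 and 1.45 for SPEN-EB, and without scaling the median of all genes tested was 0.66 on the log2 scale in SPEN-EB against WT-EB and in WT-ISC against WT-EB, 0.26 in SPEN-ISC against WT-ISC and 0.25 in SPEN-ISC against SPEN-EB. After scaling those medians were -0.15, -0.10, 0.05 and -0.06.

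No member was called in any of the 5 comparisons by limma. In ISCs, *spen* RNAi was thus not accompanied by a detectable change of any of the 22 members tested, where 7 of 6371 genes were called (0.11%, 2 higher and 5 lower, and with no scaling 2 higher and 0 lower). No member had an unadjusted p under 0.05 by limma, edgeR or DESeq2, and neither edgeR nor DESeq2 called one of the 35. The median log2 fold change of the members tested was 0.17, with 16 of 22 above 0, beside 0.05 and 55.3% above 0 for all genes tested, and it was -0.12 without WT-ISC 1 and 0.39 without WT-ISC 2. The highest was *Bap55*, with 0.70 (SE 0.40, adjusted p = 1.00 by limma), and it was the only member whose groups did not overlap after scaling, where 4.07% of genes were higher and 2.12% lower in this way. As deposited, its SPEN-ISC value of 22.1 FPKM lay within the WT-ISC range, and *Bap60* was instead the only member without overlap (114, 83.3 and 81.6 FPKM in SPEN-ISC against 72.9, 65.6 and 72.6 in WT-ISC), where 5.93% of genes were higher. The lowest was *Sce*, with -0.27 (SE 0.43, adjusted p = 1.00 by limma). The standard errors of the members ran from 0.39 to 0.69. The 13 members not tested included *trx*, *ash1*, *Sin3A*, *Smr*, *nej* and the 4 low subunits of Polycomb repressive complex 1. As deposited, the SPEN-ISC and WT-ISC values of all 13 overlapped.

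In EBs many more genes were called, but again no member. limma called 609 of 5974 genes (10.2%, of which 238 were higher and 371 lower in SPEN-EB), and 0 of the 20 members tested. The share of called genes that were higher was 39.1%, but 96.0% with no scaling, 57.9% with a median scaling and 54.2% when only tested genes set the scaling. A single member, *Mi-2*, had an unadjusted p under 0.05, where 26.2% of genes did. edgeR and DESeq2 called 0 of the 35 members, with 10 and 12 at an unadjusted p under 0.05, where 20.1% and 16% of genes were. By limma the members had a median log2 fold change of 0.23, beside -0.15 for all genes tested. Above 0 were 12 of 20 members, beside 42.6% of genes. Both values carry a limit, since 7 of the 20 members, named below, passed the filter only through SPEN-EB. The direction of those 7 was in part set by the filter. By edgeR the medians were 1.19 and 0.235, with 28 of 35 members and 59.2% of genes above 0. By DESeq2 they were 1.04 and 0.161. Whether members differ in this from other genes of like length was not tested. *Mi-2* had 7.63, 3.48 and 7.97 FPKM in SPEN-EB against 1.59 and 1.61 in WT-EB, and its log2 fold change was 0.85 (SE 0.40, adjusted p = 0.156 by limma). *Snr1* was at the other end, with 27.7, 33.2 and 47.4 FPKM in SPEN-EB against 30.2 and 35.9 in WT-EB, and a log2 fold change of -0.81 (SE 0.41, adjusted p = 0.194 by limma). The sign for *Snr1* rests on the scaling, since its fold change was 0.10 on the deposited values, and the same held for *Bap55*, *Bap60*, *esc*, *Sce*, *ash2*, *Su(var)205* and *Su(var)3-9*, 8 of the 20 members in all.

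The members whose groups did not overlap in EBs differed in exonic length. After scaling, 6 members were higher in every SPEN-EB library than in both WT-EB libraries, namely *mor*, *Iswi*, *Mi-2*, *Ino80*, *Su(z)12* and *Rpd3*, where 14.6% of genes tested were. Another 5 were lower in every SPEN-EB library, namely *Snr1*, *Bap60*, *Sce*, *ash2* and *Su(var)205*, where 32.4% of genes were. The share of members is above the first percentage and below the second, and none of the 11 passed the test. All 5 of the lower ones have less than 3 kb of exons, and of the 6 higher ones only *Rpd3* does. On the deposited values, 13 members tested were higher without overlap and 0 were lower, where 48.5% and 3.41% of genes were. Of the 20 members, 7 (*brm*, *Iswi*, *Ino80*, *Su(z)12*, *gro*, *Su(var)3-9* and *egg*) passed the filter only through SPEN-EB, so their direction was in part set by the filter. By class, the log2 fold changes were 0.48 to 0.85 for the 3 other remodellers tested, 0.53 to 0.79 for the 3 deacetylase and corepressor genes tested and -0.81 to 0.70 for the 6 Brahma genes tested.

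Calls for members in EBs depended on the fit. With no scaling, *Mi-2* (1.63), *Rpd3* (1.58), *mor* (1.51) and *CtBP* (1.43) were called by limma, with adjusted p between 0.0121 and 0.0189, which is 4 of 20 members where 16.2% of genes were called. Without SPEN-EB 2, *Su(z)12* was the only member called (0.83, adjusted p = 0.0456 by limma), where 17.5% of genes were. *Su(z)12* passed the filter only through SPEN-EB, so its direction was in part set by the filter. The library left out, at 0.497 FPKM, was its lowest in SPEN-EB. With the coverage ratio of a library (its median over other genes above 6 kb) as a covariate, a fit added after the data were seen that leaves 2 residual degrees of freedom, *Snr1* was the only member called (-0.86, adjusted p = 0.0309 by limma), where 24.8% of genes were.

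WT-ISC and WT-EB were compared to see which members differ between the cell types without RNAi. limma called 312 of 6128 genes (5.09%, 227 higher and 85 lower in WT-ISC, that is 72.8% higher, but 92.8% with no scaling), and 0 of the 20 members tested, with *Iswi* and *Rpd3* at an unadjusted p under 0.05, where 14.2% of genes were. *Iswi* had 0.509, 9.35 and 2.84 FPKM in WT-ISC against 0.378 and 0.739 in WT-EB, which gave a difference of 1.00 on the log2 scale (SE 0.45, adjusted p = 0.247 by limma), and the groups overlapped. *Rpd3* had 2.35, 15.6 and 7.67 FPKM in WT-ISC against 1.74 and 1.62 in WT-EB, with a log2 fold change of 0.97 (SE 0.43, adjusted p = 0.247 by limma) and no overlap. *esc*, *gro* and *egg* did not overlap either and were higher in WT-ISC, which makes 4 members where 13.1% of genes tested were higher in this way. *Bap55*, the lowest, was -0.58 (SE 0.49, adjusted p = 0.566 by limma) and was the only member lower in WT-ISC without overlap, where 20.4% of genes were. On the deposited values 11 members were higher in WT-ISC without overlap and 0 were lower, where 38.5% and 3.52% of genes were. Another limit is that 7 members (*brm*, *Bap170*, *Iswi*, *trr*, *gro*, *Su(var)3-9* and *egg*) passed the filter only through WT-ISC. With that limit, the median log2 fold change of the members tested was 0.38 by limma, beside -0.10 for all genes tested. Above 0 were 13 of 20 members, beside 45.2% of genes. By edgeR the medians were 1.08 and 0.241, with 31 of 35 members and 59.1% of genes above 0. By DESeq2 they were 0.94 and 0.186.

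Leaving out a single library changed the calls between the cell types. Without WT-ISC 1, limma called 1819 of 6067 genes (30%) and 7 of 20 members, all higher in WT-ISC, with adjusted p between 0.000519 and 0.0473. The share of members is close to that of all genes, and *brm*, *Bap170*, *Iswi* and *trr* are among those that passed the filter in the comparison of all libraries only through WT-ISC. The 7 were *Iswi* (1.60), *Rpd3* (1.35), *brm* (1.1), *Mi-2* (1.09), *trr* (0.98), *mor* (0.95) and *Bap170* (0.92) on the log2 scale. WT-ISC 1 was the library with the most uneven coverage of long members (3.08). By the 343 other genes above 6 kb it was at 1.429, the highest of the WT libraries. SPEN-ISC 2 (1.642), SPEN-EB 3 (1.559) and SPEN-ISC 1 (1.525) were above it by those genes. The part of coverage in these calls was not tested. edgeR called 0 of the 35 members and had 8 at an unadjusted p under 0.05 (15.8% of genes), whereas DESeq2 had 10 (13.8% of genes) and called 3.52% of genes, with *trx* the only member, at a log2 fold change of 2.96 (SE 0.80, adjusted p = 0.00851 by DESeq2), where WT-ISC 2 had 1.85 FPKM beside 0.155 and 0.250 FPKM in the other WT-ISC libraries. With the coverage ratio as a covariate, *Iswi* (1.03, adjusted p = 0.0397) and *Rpd3* (0.99, adjusted p = 0.0472) were called by limma, where 10.5% of genes were.

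**Figure D4:**
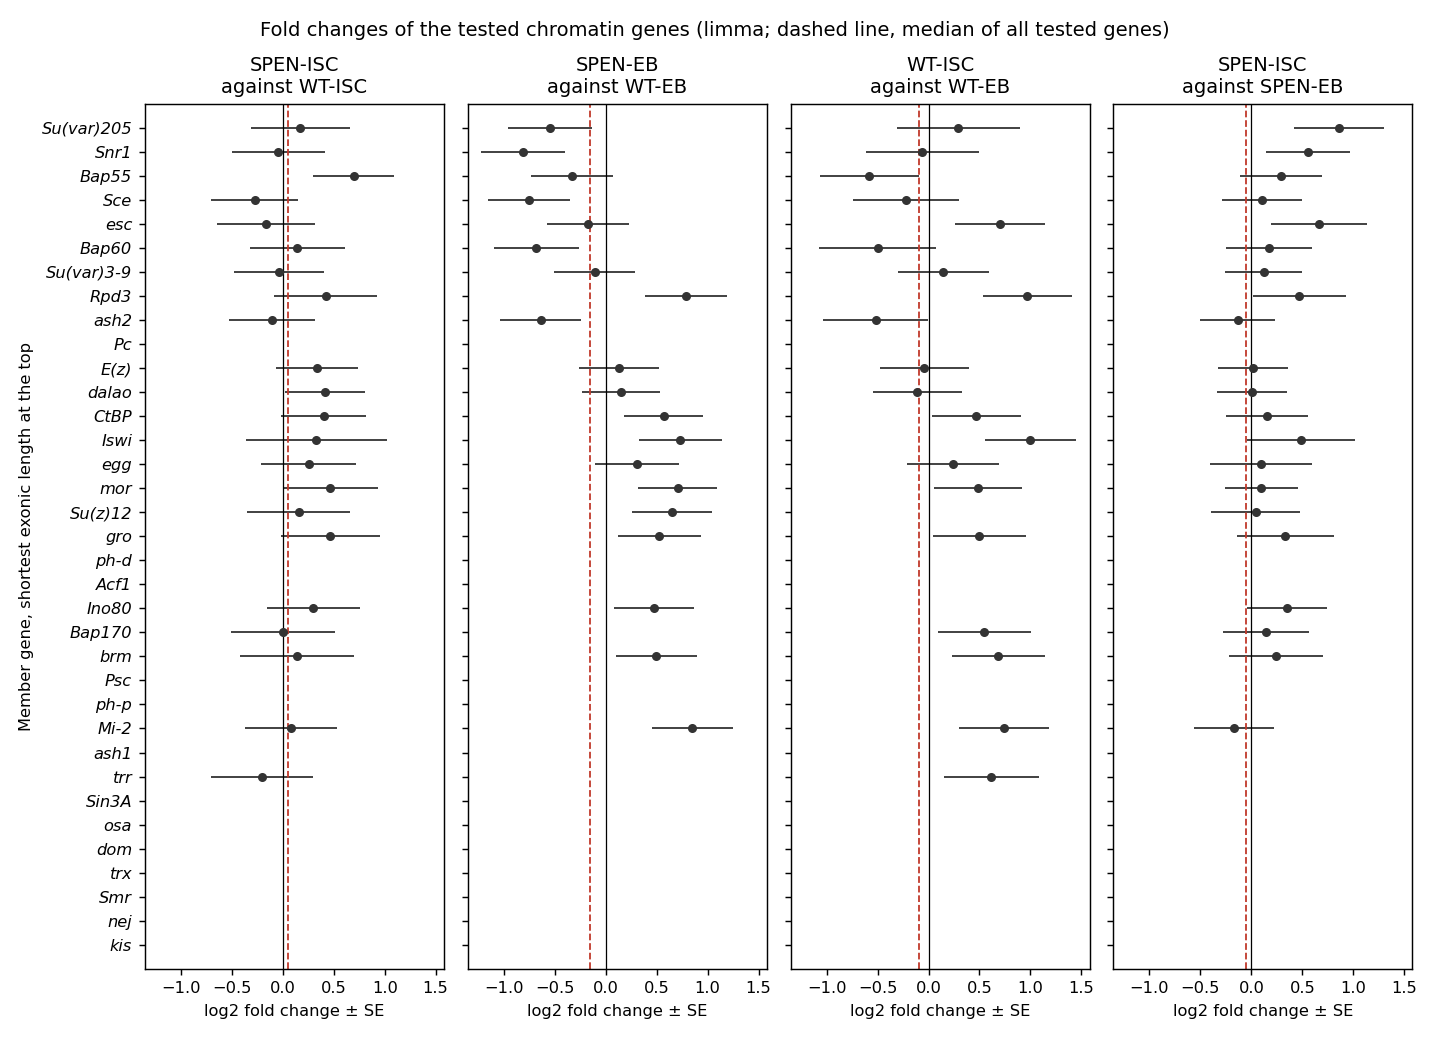
Log2 fold change with its SE for each member tested in the 4 pairwise comparisons, members ordered by exonic length with the shortest at the top; the dashed line is the median of all genes tested and members without a point were not tested. In SPEN-EB against WT-EB the points run from -0.81 for *Snr1* to 0.85 for *Mi-2*, and no point in any panel passed the test.

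SPEN-ISC and SPEN-EB gave the same question under RNAi. limma called 44 of 6225 genes (0.707%, 36 higher and 8 lower in SPEN-ISC) and 0 of the 21 members tested, none of which had an unadjusted p under 0.05. edgeR and DESeq2 called 0 of the 35 members, with 1 (*Su(var)205*) and 0 at an unadjusted p under 0.05. *Su(var)205* had 313, 170 and 172 FPKM in SPEN-ISC against 69.4, 97.3 and 111 in SPEN-EB, which did not overlap as deposited. Its log2 fold change after scaling was 0.86 (SE 0.44, adjusted p = 0.953 by limma), and the scaled groups overlapped. *Mi-2* was lowest at -0.17 (SE 0.39, adjusted p = 1.00 by limma). Of the 21 members, 19 had values above 0, beside 43.9% of all genes tested, with a median of 0.15 beside -0.06 for all genes, and after scaling 0 members were without overlap in either direction, where 4.93% of genes were higher and 4.5% lower. As deposited, 4 of the 21 (*Snr1*, *Bap60*, *Sce* and *Su(var)205*) were higher without overlap, where 8.58% of genes were. In WT cells *Su(var)205* was at 0.29 (SE 0.60) in WT-ISC against WT-EB, which shares no library with this comparison.

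The effect of *spen* RNAi was not shown to differ between the cell types for any member. The interaction term, which takes the effect in EBs minus that in ISCs and uses all 11 libraries, called 0 of 7027 genes (0%) by limma and 0 of the 29 members tested, with 119 genes and 0 members at an unadjusted p under 0.05. edgeR called 0 genes (222 at an unadjusted p under 0.05, with 0 members), and DESeq2 called 1 gene, not a member (321 at an unadjusted p under 0.05, with *ph-d* the only member among them). *trr* had the highest term, 0.88 (SE 0.62, adjusted p = 0.984 by limma), from 1.41, 0.411 and 0.528 FPKM in SPEN-EB against 0.153 and 0.108 in WT-EB, and 0.546, 0.278 and 1.58 in SPEN-ISC against 0.133, 1.46 and 1.20 in WT-ISC. *Bap55* had the lowest, -0.95 (SE 0.53, adjusted p = 0.984 by limma). The standard errors of this term ran from 0.47 to 0.92 for the members.

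Exon bins give a readout of the same genes that is taken relative to their total count, though bins of low genes are left out. Usage was tested as a log2 ratio, the count of a bin over that of the rest of its gene, for bins of at least 10 counts. In ISCs limma called 11 of 28064 bins (0.0392%) and 0 of the 142 bins in 28 members. Of these 142, 7 (4.93%) had an unadjusted p under 0.05, where 3.85% of all bins did. E001, E002 and E003 of *ash2* were among the 7, and bins of 1 gene are not independent. In EBs it called 8 of 25752 (0.0311%) and 0 of 116 in 23 members (3 unadjusted, or 2.59%, where 5.23% of all bins were). Between WT-ISC and WT-EB it called 3 of 26942 (0.0111%) and 0 of 121 in 25 members (4 unadjusted, or 3.31%, where 4.97% of all bins were). edgeR's diffSpliceDGE called 2, 3 and 0 bins in the same order and 0 member bins, with 0, 2 and 0 at an unadjusted p under 0.05.

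The member bin of smallest adjusted p in ISCs was E004 of *esc*, the first 230 transcribed bases of the gene in the authors' annotation (2L:11829176-11829405, minus strand, build BDGP5). It held 23.5%, 27.9% and 27.2% of the *esc* counts in SPEN-ISC against 16.2%, 14.1% and 14.2% in WT-ISC, without overlap, and the log2 difference was 0.93 (SE 0.28, adjusted p = 0.941 by limma). The bin rests on 13 to 71 counts, and in EBs its share was 18.4%, 20.5% and 17.3% in SPEN-EB against 20.0% and 15.1% in WT-EB. In EBs it was E002 of *ash2* (3R:20476127-20476311, plus strand), a little-used bin of 185 bases. It held 1.00%, 0.596% and 1.27% of the *ash2* counts in SPEN-EB against 0.341% and 0.262% in WT-EB, a log2 difference of 1.70 (SE 0.61, adjusted p = 0.917 by limma). The bin rests on 19, 7 and 29 counts in SPEN-EB and on 5 and 4 in WT-EB. It thus passed the filter only through SPEN-EB, so its direction was in part set by the filter. The same bin held 1.25%, 0.641% and 1.2% in SPEN-ISC against 0.364%, 0.656% and 0.593% in WT-ISC, which overlapped.

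Between the cell types it was E006 of *Bap170*, the last 1074 bases of the gene (2R:2528790-2529863, plus strand). This bin held 60.0%, 29.6% and 30.9% of the *Bap170* counts in WT-ISC against 68.4% and 61.4% in WT-EB, a log2 difference of -1.92 (SE 0.54, adjusted p = 0.696 by limma). In SPEN cells the shares were 51.7%, 50.6% and 27.7% in SPEN-ISC and 27.1%, 44.0% and 50.9% in SPEN-EB. The libraries with a low share of this last bin, SPEN-ISC 3, WT-ISC 2, WT-ISC 3 and SPEN-EB 1, are the libraries of their groups with the most even coverage of long genes. The share of a last bin is itself in part a measure of coverage along the transcript. The match is thus a description, and the part of coverage in the difference was not tested. Between the cell types this bin was called neither without the coverage ratio as a covariate nor with it. With that covariate E001 of *trr* was called (-2.1, adjusted p = 0.0430 by limma). In SPEN-EB against WT-EB, E006 of *Bap170* was called with the covariate (-1.495, adjusted p = 0.0213 by limma). Without WT-ISC 1, 3 member bins were called between the cell types by limma, E006 of *Bap170* (-2.05, adjusted p = 0.0230) and E001 and E006 of *trr* (-3.0, adjusted p = 0.000935, and 2.34, adjusted p = 0.00966). The *trr* bins carry a limit, since exons of *trr* overlap *CG14806* on the other strand by 1.55%. *trr* had 314 bin counts and 1.46 FPKM in WT-ISC 2 against 78 counts and 0.108 FPKM in WT-EB 3. Its bin counts thus fell far less than its FPKM, and the part of the overlap in this was not tested.

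A wider list of 94 other chromatin genes, further subunits of the same complexes with acetyltransferases, demethylases and heterochromatin proteins, was chosen with earlier results known. Of them, 59, 51, 53, 56 and 80 were tested in the 5 comparisons in the order above, and 0 were higher in any. A pair was lower in SPEN-EB than in WT-EB and 0 were lower elsewhere. The pair was *Chrac-16*, a histone-fold subunit of the CHRAC remodeller that contains Iswi and Acf1, at -1.30 (SE 0.40, adjusted p = 0.0260 by limma), and *HP1c*, a paralogue of HP1a found mainly in euchromatin, at -1.25 (SE 0.40, adjusted p = 0.0360 by limma). *Chrac-16* had 6.77, 10.6 and 14.4 FPKM in SPEN-EB against 11.2 and 16.6 in WT-EB, and *HP1c* had 18.3, 20.0 and 30.4 FPKM in SPEN-EB against 26.4 and 30.8 in WT-EB, so the deposited values of both genes overlapped between the groups. Neither was called with any other scaling, by edgeR or by DESeq2, and the fold changes without scaling were -0.41 and -0.34. At an unadjusted p under 0.05 by limma there were 2, 6, 2, 2 and 0 of the list, where 3.36%, 26.2%, 14.2%, 6.17% and 1.69% of genes were. Its 2 calls among 51 genes tested in EBs stand beside 10.2% of all genes.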

How the data were processed

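The authors aligned paired reads with TopHat2 2.0.6 to the r5.54 genome, keeping 1 site per read, and counted them over the exon bins of BDGP5 genes; DESeq2 1.12.2 served for their own tests. The labels name ribosomal RNA depletion and the methods poly(A) capture. The deposited gene table holds FPKM, and the deposited exon table holds read counts per bin. The authors' tables of fold changes and p-values, and 16 per-sample columns, were not used. WT-EB 2 was not analysed here. The paper left out 1 WT-EB sample because it did not group with the others in a principal component analysis, a choice made on expression values. The effect of that choice on the comparisons with WT-EB was not tested.

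The members and lists were chosen with earlier results of these data known. Full values were given to the tested member with the highest and the lowest fold change of each comparison, to members called in it and to the member bin of smallest adjusted p. A trimmed mean (30% of log ratios and 5% of mean levels left out) scaled the libraries, which were tested with limma 3.58.1 (R 4.3.3, variance trend, robust prior, Benjamini-Hochberg). Counts summed over bins were tested with edgeR 4.0.16 and DESeq2 1.42.0. Exon usage used an offset of 0.5 counts and at least 15 counts per gene. Coverage ratios needed 100 counts on average, 1000 bases and 3 bins, the last set after the data were seen. The scripts were tested on simulated data. Samples are biological replicates per the labels, and same-numbered libraries were not treated as paired. Deposited FPKM of members was 1.17 times (median; 0.355 to 1.39) the summed counts normalised to exon length and library size, over 342 values. Exons of *gro* overlap *exo84* on the other strand by 4.08%, the highest share of any member, and those of *trr* overlap *CG14806* by 1.55%. Members shared no same-strand exon.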

Additional observations from a re-analysis of the deposited data

How the results depend on the processing

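Relative to 7, 609, 312 and 44 genes in SPEN-ISC against WT-ISC, SPEN-EB against WT-EB, WT-ISC against WT-EB and SPEN-ISC against SPEN-EB, the counts were 0, 48, 21 and 2 with no filter, 2, 967, 97 and 71 with no scaling, 19, 42, 117 and 78 with all 11 libraries in 1 fit, and 0, 73, 112 and 20 by edgeR. A median of log ratios gave 380 in SPEN-EB against WT-EB, a filter of 5 FPKM gave 160 in WT-ISC against WT-EB, and DESeq2 gave 57 in ISCs and 207 in SPEN-ISC against SPEN-EB. The interaction term, with 0 genes, had 1 gene with no filter and 1 by DESeq2. Among alternatives chosen after seeing the data, the coverage ratio (the median over other genes above 6 kb) as a covariate gave 110, 1481, 643 and 98 genes, a trimmed mean over tested genes 0, 214 and 148 in the first 3 comparisons, and leaving out the 3 libraries of lowest coverage ratio by that median (SPEN-EB 1 at 0.451, SPEN-ISC 3 at 0.618 and WT-ISC 3 at 0.795, with WT-ISC 2 next at 0.851) 4, 247, 207 and 18. A filter on scaled FPKM, also added, changed no count by over 1.5 times. Of the genes called in SPEN-EB against WT-EB, 39.1% were higher, against 96.0% with no scaling, 57.9% with the median, 54.2% with tested genes, 72.6% by edgeR and 68.6% by DESeq2. In WT-ISC against WT-EB 72.8% were higher, against 92.8% with no scaling, 83.9% by edgeR and 85.3% with the block, and in ISCs 28.6%, against 100% with no scaling and 47.4% by DESeq2.

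Members were called under 3 settings that keep every library. In SPEN-EB against WT-EB there were 4 with no scaling and 1 with the covariate, and in WT-ISC against WT-EB 1 by DESeq2 and 2 with the covariate. Leaving out each library in turn gave 0 to 1 members in SPEN-EB against WT-EB, 0 to 7 in WT-ISC against WT-EB and 0 in the other comparisons. The genes called then ranged from 1 to 40 in ISCs, 102 to 1029 in EBs, 62 to 1819 in WT-ISC against WT-EB and 28 to 92 in SPEN-ISC against SPEN-EB. With no scaling, 4 of 22, 8 of 20, 7 of 20 and 2 of 21 members turned sign in the 4 pairwise comparisons and 5 of 29 in the interaction term. Of the members given full values, *Snr1* in EBs was 0.10 and *Bap55* in WT-ISC against WT-EB 0.26 with no scaling. *Mi-2* in SPEN-ISC against SPEN-EB was 0.15 with no scaling and ran from -0.45 (without SPEN-ISC 3) to 0.078 (without SPEN-ISC 2) when a library was left out. *Sce* in ISCs ran from -0.54 (without SPEN-ISC 2) to 0.0041 (without SPEN-ISC 3), and was 0.0016 without the 3 libraries of lowest coverage ratio. The cause was not tested.

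Of exon bins, 11, 8 and 3 were called in ISCs, in EBs and in WT-ISC against WT-EB, against 2, 3 and 0 by diffSpliceDGE. With the covariate the counts were 54, 538 and 52 bins, of which 0, 3 (E001 and E006 of *trr* and E006 of *Bap170*) and 1 (E001 of *trr*) were in members. The limit given above for the bin counts of *trr* applies to these calls. A bin minimum of 30 counts gave 5 bins in EBs. Leaving out a library gave 6 to 17, 1 to 118 and 5 to 231 bins, and 0, 0 and 0 to 3 member bins.

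The labels do not say whether same-numbered libraries are paired, and the values cannot settle it. Same-numbered libraries correlated in their deviations from group means at 0.225, -0.400 and 0.132 in ISCs, 0.028 and 0.088 in EBs, 0.083 and 0.053 between WT-ISC and WT-EB, and -0.598, 0.632 and -0.119 between SPEN-ISC and SPEN-EB. In the last comparison unlike-numbered libraries reached -0.714 and 0.695. With 2 WT-EB libraries the deviations mirror each other, so the values with WT-EB cannot show or exclude pairing. With the replicate number as a block, 36, 722, 218 and 76 genes and 0 members were called, and 6, 98 and 93 bins, of which 1 in EBs was in a member (E001 of *trr*). The limit on the bin counts of *trr* holds for that call too.

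Members below 1 FPKM rest on few counts, as few as 1 for *ph-d*, and groups of 2 or 3 libraries gave the members standard errors of 0.34 to 0.69 in the pairwise comparisons.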
